A study of Mus musculus with 6 samples.

Results

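The Hox genes of the mouse were examined in whole adult brain on 6 Affymetrix Mouse Gene 2.0 ST arrays. A gene was taken as a member where its symbol was Hoxa, Hoxb, Hoxc or Hoxd followed by a number and at least 1 probeset carried that symbol alone, and the probeset with the highest mean stood for the gene. This gave 36 members among 22180 genes with such a probeset, and no limit on brightness was set. The members comprise 9 genes of the Hoxa cluster, 10 of Hoxb, 9 of Hoxc and 8 of Hoxd. Hoxa11 shared both of its probesets with its antisense gene and Hoxd4 shared its only probeset with Hoxd3, so neither is a member.

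The arrays came from 3 control and 3 knockout samples of total brain RNA. Controls had the genotype Thy1Cre-ERT2-EYFPHuRf/+ (designated WT by the submitters) and knockouts Thy1Cre-ERT2-EYFPHuRf/f, and brains in both groups were taken at 91 days of age. HuR is the RNA-binding protein encoded by Elavl1. Both groups carried the tamoxifen-inducible Cre with its EYFP reporter under the neuronal Thy1 promoter and both received tamoxifen at 10 and 11 weeks, and the control also has 1 floxed allele that Cre can delete. Non-neuronal cells and neurons without Thy1-driven Cre keep the gene. Mice of either sex were used, with no sex given per sample. Nothing in the labels ties each sample to an animal of its own, and the p-values then cover only sample-to-sample spread, which may be technical. In RNA from a whole organ, fewer cells of a type and less RNA per cell cannot be told apart.

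Hox genes encode homeodomain transcription factors that give cells their position along the head-to-tail axis. They lie in clusters, and genes with low paralogue numbers are used furthest towards the head, in the hindbrain, while those with high numbers are used in the posterior spinal cord, trunk and limbs. Retinoic acid switches the clusters on in the embryo, Polycomb complexes keep them silent elsewhere and trithorax complexes keep them active. In the embryo, forebrain and midbrain form without Hox expression, while the hindbrain forms with it.

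Promoter sequence was available for 20 of the 36 members, from RefSeq on GRCm38.p6. Of the Hoxb cluster only Hoxb1, Hoxb4 and Hoxb8 were among them, and of Hoxc only Hoxc4. The windows of 300 bases ran from 250 bases before the annotated start to 50 after it. These sequences are shown because the windows differ in 2 features: a site that Hox proteins bind together with their Pbx partners, and the density of CG dinucleotides, which marks promoters that Polycomb can occupy. The Hox/Pbx motif was searched as TGATNNAT on both strands, with 1 window per gene at its first listed start. It was found in 3 of the 20 windows (15%), against 7.63% of 16966 windows of other measured genes. A second listed start of Hoxd11 also carried it and is not counted or printed. The printed letters are the 250 bases before the start, 5′ to 3′ on the strand of the gene, and capitals mark the motif:
Hoxb1, chr11:96365508-96365757, plus strand: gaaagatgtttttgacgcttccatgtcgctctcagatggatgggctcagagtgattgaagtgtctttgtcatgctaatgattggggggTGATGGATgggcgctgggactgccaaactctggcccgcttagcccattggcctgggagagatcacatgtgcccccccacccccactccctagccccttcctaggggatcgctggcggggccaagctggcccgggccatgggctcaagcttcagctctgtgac
Hoxb8, chr11:96281655-96281904, plus strand: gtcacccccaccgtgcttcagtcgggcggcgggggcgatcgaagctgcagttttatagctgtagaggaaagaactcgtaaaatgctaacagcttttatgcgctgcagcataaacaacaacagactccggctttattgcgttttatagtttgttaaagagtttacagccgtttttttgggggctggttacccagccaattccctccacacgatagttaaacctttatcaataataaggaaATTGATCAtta
Hoxa2, chr6:52164832-52165081, minus strand: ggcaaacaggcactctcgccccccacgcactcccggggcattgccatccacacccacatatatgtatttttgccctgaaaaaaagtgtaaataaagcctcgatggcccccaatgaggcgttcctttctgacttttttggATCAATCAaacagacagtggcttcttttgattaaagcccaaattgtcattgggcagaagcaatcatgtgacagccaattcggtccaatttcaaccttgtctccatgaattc
The match begins 162 bases before the start in Hoxb1, 11 before it in Hoxb8 and 111 before it in Hoxa2. It reads on the gene's own strand in Hoxb1, as TGATGGAT, and on the opposite strand in Hoxb8 and Hoxa2. A match is a description of the letters and does not show that a factor is bound.

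Windows were called CpG-rich where GC content was at least 50% and the observed count of CG was at least 0.6 of the count expected from the bases. By that rule 8 of the 20 Hox windows (40%) were CpG-rich, against 46% of the windows of other genes. All 3 counted Hox/Pbx motifs lay among the 12 Hox windows that were not CpG-rich. In other genes the motif was in 12.1% of windows that were not CpG-rich and in 2.37% of CpG-rich ones. The share of the motif was not tested. The pair with the most CG dinucleotides, Hoxa13 and Hoxd13, is shown beside Cycs, the cytochrome c gene that lies 8 genes away from the Hoxa cluster and had the brightest reading among flanking genes with a CpG-rich window. Capitals mark each CG:
Hoxa13, chr6:52260881-52261130, minus strand: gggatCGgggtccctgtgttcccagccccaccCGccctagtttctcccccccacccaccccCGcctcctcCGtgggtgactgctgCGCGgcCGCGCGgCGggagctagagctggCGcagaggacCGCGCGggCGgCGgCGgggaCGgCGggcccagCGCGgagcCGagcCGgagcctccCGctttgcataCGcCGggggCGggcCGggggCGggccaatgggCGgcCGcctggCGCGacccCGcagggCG
Hoxd13, chr2:74667975-74668224, plus strand: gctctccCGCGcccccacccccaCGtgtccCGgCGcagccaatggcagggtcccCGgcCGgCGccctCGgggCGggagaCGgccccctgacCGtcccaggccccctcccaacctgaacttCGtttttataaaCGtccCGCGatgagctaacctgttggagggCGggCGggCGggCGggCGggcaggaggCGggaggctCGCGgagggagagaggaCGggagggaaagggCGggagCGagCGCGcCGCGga
Cycs, chr6:50566570-50566819, minus strand: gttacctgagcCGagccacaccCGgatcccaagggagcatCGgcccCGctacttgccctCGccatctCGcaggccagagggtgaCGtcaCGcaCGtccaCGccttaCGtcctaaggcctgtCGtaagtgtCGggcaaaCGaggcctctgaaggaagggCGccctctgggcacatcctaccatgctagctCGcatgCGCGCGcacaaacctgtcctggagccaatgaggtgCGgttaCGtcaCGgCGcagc
The printed bases hold 35 CG in Hoxa13, 31 in Hoxd13 and 23 in Cycs. The first 2 genes pattern digits and the hindmost body and read 3.23 and 3.20, whereas Cycs read 11.0, as means over the 6 arrays on the scale defined next.

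Levels are log2(intensity + 1) after quantile normalization, so 1 unit is a doubling of intensity + 1. The median over all 41340 probesets, named or not, was 3.88 on every array after normalization and serves as the reference called the array median. The deposited intensities behind it had medians between 13.4 and 14.6. No detection calls were used, so 42 genes typical of other organs, such as liver, testis or muscle, give the reading of genes that brain is not known to use. Their median was 3.30 to 3.49 over the arrays, their 90th percentile 4.37 to 4.50 and their highest member 4.95 to 5.35. Brightness also depends on the probes, so an order of genes is an order of readings and not of transcript amounts.

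As a group the Hox genes read low. Their median level was 3.34, 3.42 and 3.37 in the controls and 3.39, 3.46 and 3.49 in the knockouts, below the array median on each array. Over all genes the median of mean levels was 4.81, and over the Hox genes it was 3.43. Only 4 of 36 Hox genes (11.1%) were above the array median on all 6 arrays, against 58.5% of all genes and 7 of the 42 genes of other organs (16.7%). Below it on all 6 arrays were 23 Hox genes (63.9%), against 32.8% of all genes and 27 genes of other organs (64.3%). Set against the median of the genes of other organs, the Hox median differed by -0.14, -0.01 and -0.07 in the controls and by 0.07, 0.16 and 0.02 in the knockouts. It was thus below that reference in all 3 controls and above it in all 3 knockouts, although the Hox medians on their own overlapped between the groups. The reference itself read 3.49, 3.43 and 3.43 in the controls and 3.32, 3.30 and 3.46 in the knockouts, and its part in this split was not tested. The summed level of the 36 genes was 126, 128 and 125 in the controls and 127, 127 and 128 in the knockouts.

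**Figure D1:**
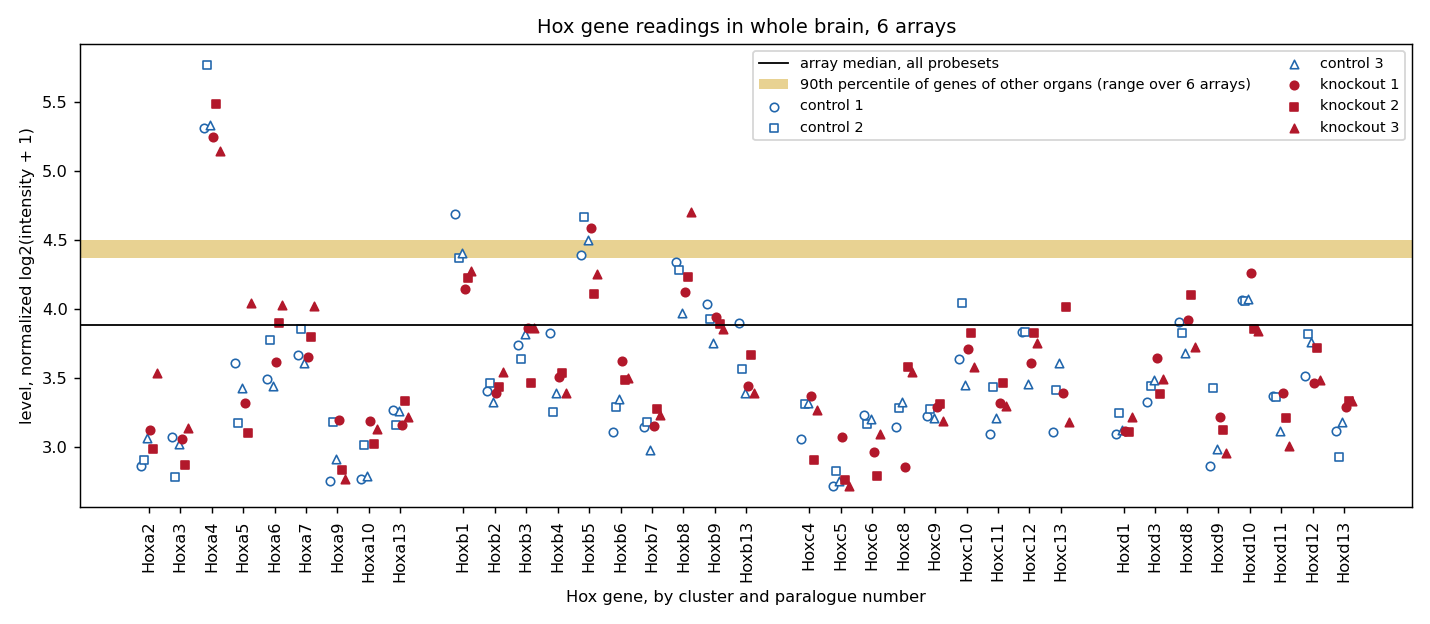
Level of each of the 36 Hox genes on each array (normalized log2(intensity + 1)), with a line at the array median and a band for the 90th percentile of the genes of other organs, 4.37 to 4.50 over the arrays. Most genes sit below the array median of 3.88; Hoxa4, with a mean of 5.38, stands above the rest.

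Hoxa4, which helps set the identity of the cervical and upper thoracic region in the embryo, had the highest reading. It read 5.31, 5.77 and 5.34 in the controls and 5.25, 5.49 and 5.15 in the knockouts, or deposited intensities of 38.9, 51.8, 39.4, 36.9, 43.9 and 34.7. It was the only member above the 90th percentile of the genes of other organs on all 6 arrays, a limit that 50.9% of all genes and 3 of the 42 genes of other organs passed. Its mean of 5.38 lay at the 56.7th percentile of all genes, so the brightest Hox gene was close to the middle of the named genes. No promoter window was available for it.

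Hoxb5, an axial patterning gene that also acts in neural crest, read 4.39, 4.67 and 4.50 in the controls and 4.58, 4.11 and 4.26 in the knockouts. It was above the array median throughout, and above the 90th percentile of the genes of other organs on 3 arrays. Hoxb5 had a second, dimmer probeset with a mean of 4.27, which was above the array median on every array too.

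Hoxb1, which specifies the segment of the hindbrain that gives rise to facial motor neurons, read 4.69, 4.37 and 4.40 in the controls and 4.15, 4.22 and 4.27 in the knockouts. Every control was above every knockout. Hoxb8, known for axial patterning and for a lineage of microglia, read 4.34, 4.28 and 3.97 in the controls and 4.13, 4.23 and 4.70 in the knockouts, and the groups overlapped. Both genes, whose windows carry the Hox/Pbx motif printed above, were above the 90th percentile of the genes of other organs on 1 array each. Hoxa2, the third gene with a printed motif, is the selector of the second pharyngeal arch. It read between 2.86 and 3.53 and was below the array median throughout. Hoxd11, with the motif at a second listed start, had a mean of 3.24 and was also below the array median throughout.

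The next 6 genes in the order crossed the array median or lay just under it. Hoxd10, which helps specify lumbar motor neurons, read 4.07, 4.05 and 4.07 in the controls and 4.26, 3.85 and 3.84 in the knockouts. Hoxb9, a gene of the thoracic region, read 4.03, 3.93 and 3.75 in the controls and 3.94, 3.89 and 3.85 in the knockouts. Without both arrays numbered 3, Hoxb9 joined the genes above the array median on every array, which made 5 of 36 against 59.2% of all genes. Hoxd8 read 3.90, 3.83 and 3.68 in the controls and 3.92, 4.10 and 3.72 in the knockouts. Hoxa7, a gene of trunk patterning, read 3.66, 3.86 and 3.61 in the controls and 3.65, 3.80 and 4.02 in the knockouts. All of these were within the range of the genes of other organs and their groups overlapped. Hoxb3, a gene of the posterior hindbrain, read 3.74, 3.64 and 3.82 in the controls and 3.86, 3.46 and 3.86 in the knockouts. Hoxc12, known from hindlimb and hair follicle, read 3.83, 3.83 and 3.46 in the controls and 3.61, 3.82 and 3.75 in the knockouts. A hindbrain gene and a posterior gene thus stood next to each other in the order of readings, both below the array median on all arrays.

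The dimmest gene of each cluster was the paralogue numbered 5 in Hoxc, 7 in Hoxb and 9 in both Hoxa and Hoxd. Hoxc5, the lowest reading of all members, was at 2.71, 2.83 and 2.75 in the controls and 3.07, 2.76 and 2.72 in the knockouts. Hoxa9, known for its part in blood progenitors, read 2.75, 3.18 and 2.91 in the controls and 3.20, 2.83 and 2.77 in the knockouts. Hoxb7 read 3.14, 3.18 and 2.98 in the controls and 3.15, 3.27 and 3.23 in the knockouts. These 3 genes were below the array median on every array. Hoxd9 read 2.86, 3.43 and 2.99 in the controls and 3.22, 3.12 and 2.95 in the knockouts, also below it throughout.

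Members varied between arrays about as much as other genes did: the median SD over the 6 arrays was 0.164 for Hox genes and 0.160 for all genes. Hoxa5, a gene of the cervical region and the respiratory system, had the widest range, 3.61, 3.17 and 3.42 in the controls and 3.32, 3.10 and 4.04 in the knockouts. Its single high value was on knockout 3. Hoxc13, known from hair and nail, spanned 0.91, from 3.10 on control 1 to 4.01 on knockout 2. Hoxc9, which specifies thoracic motor neurons, had the narrowest range, 0.12, with all values between 3.19 and 3.31.

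By cluster, the median of mean levels was 3.23 for Hoxa, 3.64 for Hoxb, 3.29 for Hoxc and 3.35 for Hoxd. Hoxb held 3 of the 4 genes that stayed above the array median (Hoxb1, Hoxb5 and Hoxb8) and Hoxa the other one (Hoxa4). In Hoxc no gene had a mean above the array median, and its brightest gene, Hoxc12, had a mean of 3.72. The Hoxb median was above the Hoxc median on each of the 6 arrays, by 0.14 to 0.72, while Hoxa minus Hoxc ran from -0.36 to 0.27. These differences carry the brightness of the probes and have no test.

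By paralogue number, the 7 genes numbered 1 to 3, whose expression reaches furthest into the hindbrain, had a median of 3.42. The 14 genes numbered 4 to 8 had a median of 3.46 and the 15 genes numbered 9 to 13 a median of 3.30. The first group minus the last ran from -0.078 to 0.24 over the arrays and was above 0 on 5 of 6, and genes 4 to 8 minus 9 to 13 ran from -0.13 to 0.34 and were above 0 on 5 of 6. The readings held no step from hindbrain to posterior genes that kept its sign on all arrays. Above the array median on all arrays were 1 of 7 genes numbered 1 to 3, 3 of 14 numbered 4 to 8 and 0 of 15 numbered 9 to 13.

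**Figure D2:**
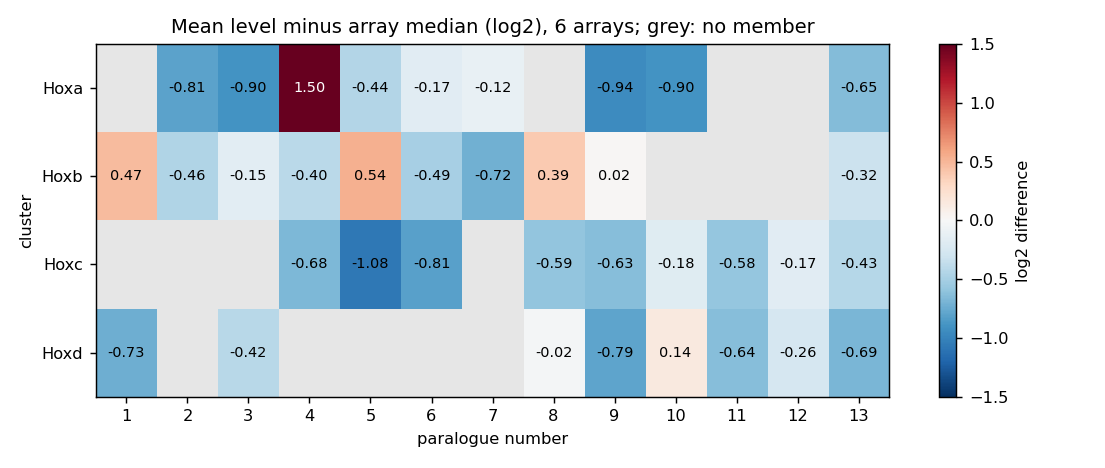
Mean level of each Hox gene minus the array median (log2 units), by cluster (rows) and paralogue number (columns), with empty cells where no member exists. Hoxa4 is 1.50 above the array median, and 30 of the 36 genes are below it.

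Probesets that name a Hox gene together with another gene were not used for members. The one shared by Hoxa3 and 5730446D14Rik had a mean of 4.52, above that of Hoxa3 alone at 2.99, and the 2 genes cannot be told apart in it. Those shared by Hoxd4 with Hoxd3 and by Hoxb3 with Hoxb2 had means of 4.01 and 3.82. The pair shared by Hoxa11 and Hoxa11os had means of 3.14 and 3.32.

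The clusters also hold miRNA genes, whose products target Hox transcripts among others, and long non-coding RNAs. Their mature sequences, from RefSeq on GRCm38.p6, are shown because they fall into 3 seed families across the clusters, with capitals marking the seed, bases 2 to 8:
mmu-miR-10a-5p, chr11:96317186-96317208, plus strand: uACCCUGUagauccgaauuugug
mmu-miR-10b-5p, chr2:74726074-74726096, plus strand: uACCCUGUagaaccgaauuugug
mmu-miR-196a-5p, chr11:96265187-96265208, plus strand: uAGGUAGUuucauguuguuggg
mmu-miR-196b-5p, chr6:52230129-52230150, minus strand: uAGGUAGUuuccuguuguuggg
mmu-miR-615-3p, chr15:103014969-103014990, plus strand: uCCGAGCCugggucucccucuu
The 2 members of the miR-10 family share the seed ACCCUGU and the miR-196 family shares AGGUAGU. The coordinates of miR-196a-5p are those of Mir196a-1 in the Hoxb cluster. The array reads the precursor genes and not the mature forms. Mir10b read 2.55, Mir196a-1 3.30, Mir196a-2 3.92 and Mir615 3.87 as means of 6 arrays. Among the long RNAs, Hotair of the Hoxc cluster read 3.20, Hoxaas3 of Hoxa 4.28 and Hoxd3os1 of Hoxd 4.29, so the last pair stood higher than most of the Hox genes beside them.

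Each cluster read lower than the genes around it. The flanks were 80 measured protein-coding genes, 10 on each side of each cluster. Of these, 62 (77.5%) were above the array median on all 6 arrays, against 58.5% of all genes, which include non-coding ones. The median of the 80 flanking genes was 5.69. For Hoxa on chromosome 6, the median of the cluster was below that of its 20 flanking genes by 3.00 to 3.40 over the arrays, and for Hoxd on chromosome 2 by 2.99 to 3.33. For Hoxc on chromosome 15 the gap was 1.94 to 2.04, and for Hoxb on chromosome 11 it was 1.41 to 1.92. The gap had the same sign on all 6 arrays in all 4 clusters.

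**Figure D3:**
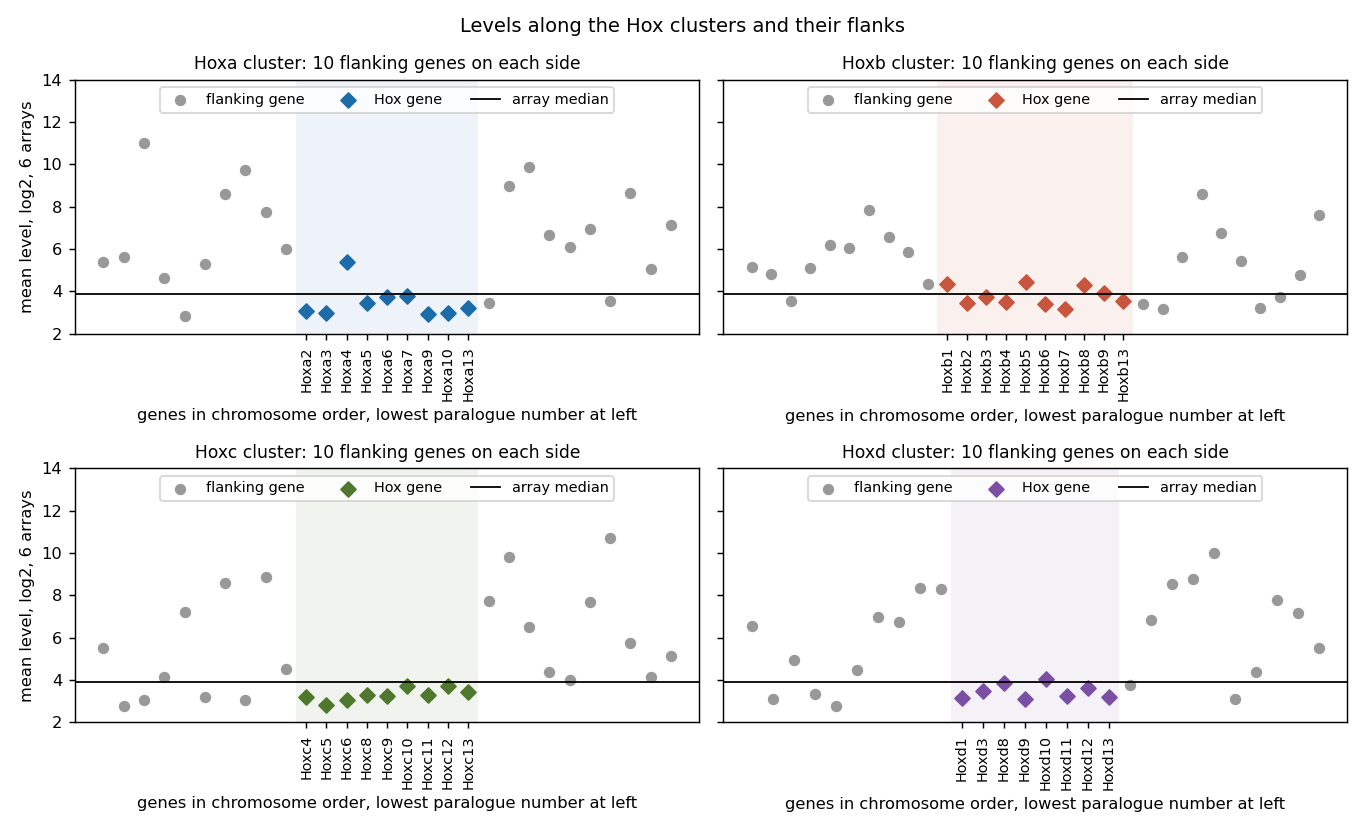
Mean level of the Hox genes (coloured) and of 10 measured flanking genes on each side (grey) in chromosome order for the 4 clusters; the line is the array median. The shaded cluster dips below its flanks, which have medians of 6.39, 5.29, 5.31 and 6.63 for Hoxa, Hoxb, Hoxc and Hoxd.

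The step was sharp at some borders. Skap2, an adaptor protein gene on the side of Hoxa with low numbers, read 6.02, and Mtx2, a mitochondrial import gene beside Hoxd, read 8.32. Evx1 and Evx2, homeobox genes at the high-number ends of Hoxa and Hoxd that are controlled with the clusters, read 3.46 and 3.77, like the Hox genes. Beyond them, Hibadh, a gene of valine breakdown, read 8.97 and Lnpk, a gene of endoplasmic reticulum shape, 6.82. At the Hoxb cluster both borders were dim, with Skap1 at 4.33 and Ttll6 at 3.42.

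CpG-rich windows, which among the Hox genes were all in Hoxa or Hoxd, went with other readings there than elsewhere. Of the 8 Hox genes with a CpG-rich window, 0 were above the array median on all arrays and the median level was 3.34, while of 7806 other genes with a CpG-rich window 88.3% were above it and the median was 6.49. The CpG-rich flanking genes, 44 in number, had a median of 7.14 and 42 of them were above it. Counting any listed start of a gene, 10 Hox genes were CpG-rich and 0 of them were above it. Hoxa4 and Hoxb5, which stayed above the array median, had no window.

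Among the 12 Hox genes whose window was not CpG-rich, 2 (Hoxb1 and Hoxb8) were above the array median on all arrays and the median was 3.36, against 36.5% and 3.54 for 9160 other genes without a CpG-rich window.

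Genes that work with or upstream of the Hox genes were read in the same arrays. All 8 measured Hox cofactors, the Pbx and Meis families and their relatives, were above the array median on every array, with a median of 6.07. Meis2, the brightest of them, read 9.14, 9.27 and 9.35 in the controls and 9.26, 9.17 and 9.49 in the knockouts, with overlapping groups. The 25 measured Polycomb genes of 27 listed had a median of 6.46 and 24 were above the array median on every array, among them Ezh1 at 8.38 and Ezh2 at 6.78, the enzymes that set the silencing mark. The 12 trithorax genes of 13 listed had a median of 7.19, and all 12 were above it, with Kmt2a at 7.78. Of 16 retinoid genes of 17 listed, 13 were above it, and the retinoic acid receptor Rarb read 5.66. The 6 ParaHox genes, the sister genes of the Hox clusters, had a median of 3.80, and 0 were above the array median throughout.

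Against the control, no Hox gene passed the test in the knockout. With limma across 22180 genes and Benjamini-Hochberg adjustment at 0.05, 0 of 36 Hox genes were called, as were 0 of all genes (0%). At an unadjusted p under 0.05, 2 of 36 Hox genes were past it, both higher, among 465 genes in all (2.1%), of which 259 were higher and 206 lower. The median log2 difference, knockout minus control, was 0.023 over the Hox genes, 0.009 over all genes and 0.019 over the genes of other organs. It was above 0 for 21 of 36 Hox genes (58.3%) and for 53.4% of all genes. Differences ran from -0.27 to 0.29, and the 95% confidence interval of a Hox gene had a median half-width of 0.30. Over the 36 genes the intervals reached from 0.684-fold to 1.60-fold, as folds of intensity + 1. Each interval is for 1 gene, and the 36 have no joint coverage.

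Hoxb6, a gene of trunk and forelimb level, read 3.10, 3.29 and 3.34 in the controls and 3.62, 3.48 and 3.50 in the knockouts. The log2 difference was 0.29 with a standard error of 0.11, a 95% interval of 0.04 to 0.54, an unadjusted limma p of 0.029 and an adjusted p of 1. Hoxd13 read 3.11, 2.92 and 3.18 in the controls and 3.29, 3.33 and 3.33 in the knockouts, with a difference of 0.25, a standard error of 0.10 and an unadjusted limma p of 0.048. The adjusted limma p was 1 for this gene too. For both genes every knockout was above every control, yet all values were below the array median and in the range of the genes of other organs.

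The knockout was also higher on every array for Hoxa10, a gene of the uterus and the lumbar region, which read 2.76, 3.01 and 2.79 in the controls and 3.19, 3.02 and 3.13 in the knockouts. It differed by 0.26 with a standard error of 0.11. Groups did not overlap in this direction for these 3 genes (8.33% of members), against 3.67% of all genes. In the other direction they did not overlap for Hoxb1 and Hoxc6, 2 of 36 genes (5.56%), against 3.12% of all genes. Of the 42 genes of other organs, 3 did not overlap with the knockout higher and 3 with it lower. The Hox counts are 3 and 2 genes, and neither share was tested. Hoxc6, a gene of the brachial spinal cord, read 3.23, 3.16 and 3.20 in the controls and 2.96, 2.79 and 3.09 in the knockouts, a difference of -0.25 with a standard error of 0.11. Hoxb1, with the values given above, differed by -0.27 with a standard error of 0.12 and an unadjusted limma p of 0.051.

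Of the brighter genes, Hoxb5 differed by -0.20 with a standard error of 0.15, and Hoxa4 by -0.18 with a standard error of 0.16. In both the groups overlapped, and the 95% interval of Hoxa4 ran from 0.686-fold to 1.14-fold. The difference of Hoxb5 was -0.067 when both of its probesets were averaged.

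**Figure D4:**
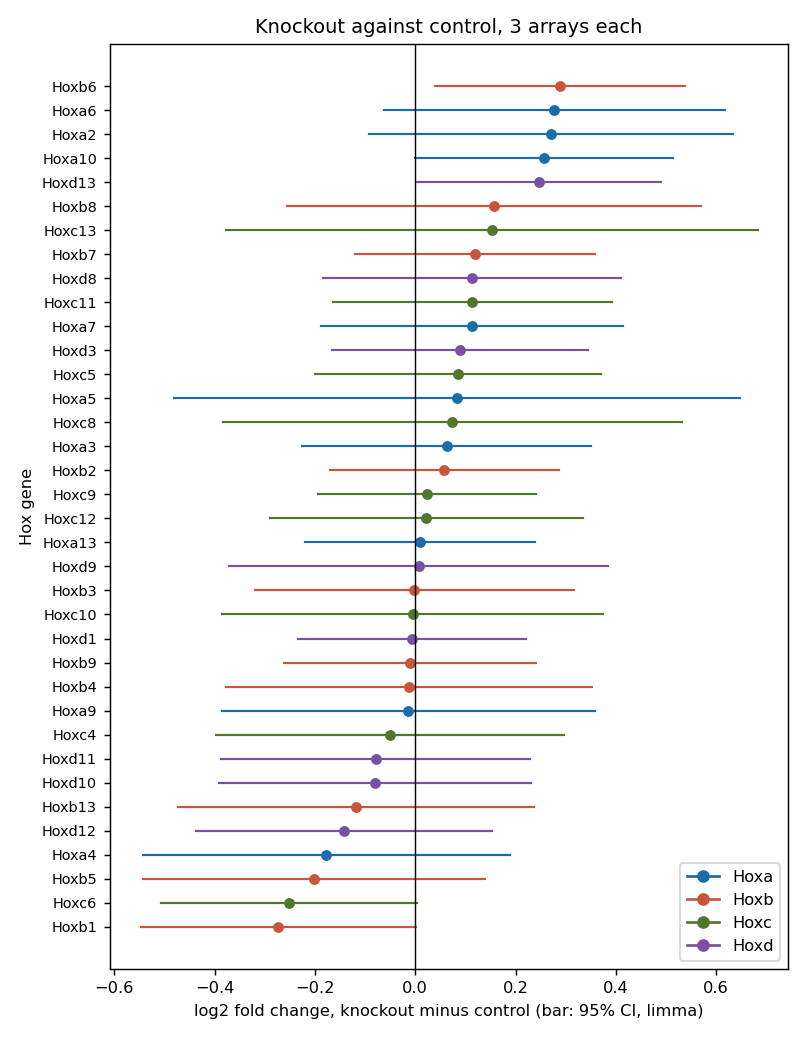
Knockout minus control for each Hox gene (log2 difference) with its 95% confidence interval from limma. Intervals of Hoxb6 and Hoxd13 alone lie above 0, with adjusted p of 1.

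With the replicate number as a block, 0 of 36 Hox genes and 0 of all genes (0%) passed the adjusted threshold in limma, and 4 Hox genes had an unadjusted p under 0.05, among 1074 of all genes (4.84%). The 4 were Hoxb6, Hoxd13 and Hoxa2 with the knockout higher and Hoxc6 with it lower, and their adjusted limma p was 0.983. Without control 1 no Hox gene was under an unadjusted 0.05, and without control 2 there were 4.

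None of the other lists had a gene past the adjusted threshold in limma. Before adjustment, at a p under 0.05, 0 genes stood out among the cofactors, the ParaHox, Polycomb, trithorax and retinoid genes. Among the 42 genes of other organs 1 did. This was Alpi, with a difference of -0.32, a standard error of 0.11, an unadjusted limma p of 0.018 and groups that did not overlap. Pbx2, a cofactor, had the smallest p of its list, with a difference of 0.25 and a standard error of 0.11. Crabp1, a retinoic acid binding protein, differed by 0.40 with a standard error of 0.19. Of 9 measured hindbrain markers of 12 listed, 2 were higher at that level, against 2.1% of all genes in either direction. Tph2, the enzyme of serotonin synthesis, differed by 0.80 with a standard error of 0.27, and its groups overlapped. Dbh, the enzyme of noradrenaline synthesis, differed by 0.38 with a standard error of 0.14, and its groups did not overlap. With the replicate block there were 3, against 4.84% of all genes, and neither share was tested. The added gene was Slc6a4, the serotonin transporter, with a difference of 0.64, a standard error of 0.28 and overlapping groups. Its unadjusted limma p was 0.056 without the block and 0.0042 with it.

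Elavl1 read 8.27, 8.01 and 8.53 in the controls and 8.22, 8.17 and 8.27 in the knockouts, a log2 difference of -0.05 with a standard error of 0.14. Where its probeset lies relative to the floxed part is not known here, and so this does not check the labels. The arrays numbered 3 of both groups stood apart. Xist, the transcript of the inactive X chromosome, read 7.69 and 7.68 there and 2.52 to 2.79 on the other 4 arrays. The cerebellum list had medians of 7.50 and 7.66 there against 6.15 to 6.77 elsewhere. In that list Gabra6, Cbln3 and Fat2 read higher on both arrays numbered 3 than on each of the other 4. Ppp1r17, Gdf10 and Barhl1 overlapped.

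The hindbrain is the brain region that forms with Hox expression. Of its 9 measured markers, 4 (Slc6a5, Glra1, Slc6a4 and Slc6a2) read higher on both of those arrays than on each of the other 4. The other 5 (Tph2, Dbh, Lmx1b, En1 and Tlx3) overlapped, and Tlx3 had a lower mean there. The share of all genes that separate in this way was not counted. Deviations from group means over all genes correlated at 0.70 between the arrays numbered 3. The count of 4 can therefore not be read as particular to hindbrain markers. Slc6a5, the glycine transporter of brainstem and spinal neurons, read 5.70, 5.43 and 7.91 in the controls and 4.85, 6.19 and 8.14 in the knockouts, 5.58-fold higher on the arrays numbered 3 than on the others. Glra1, a glycine receptor subunit, read 5.97, 5.31 and 8.18 in the controls and 5.69, 6.38 and 8.44 in the knockouts, 5.54-fold higher. The summed level of the 9 hindbrain markers was 47.6 and 49.3 on the arrays numbered 3 and between 39.9 and 45.1 elsewhere. Slc6a5 and Glra1 together made up 4.95 of the 6.68 by which its mean differed.

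For the Hox genes the shift, arrays numbered 3 minus the others, had a median of -0.029 and ran from -0.29 for Hoxc10 to 0.43 for Hoxa5. It was above 0 for 16 of 36 genes, against 49.9% of all genes. Hoxa4 had a mean of 5.24 on the arrays numbered 3 and 5.45 on the others. The paralogues numbered 1 to 3 had a median of 3.33 on control 3 and 3.53 on knockout 3, against 3.32 to 3.44 elsewhere. The probeset shared by Hoxb3 and Hoxb2, both genes of the hindbrain, was no member. It read 3.52, 4.04 and 4.17 in the controls and 3.49, 3.51 and 4.17 in the knockouts, highest on the arrays numbered 3. No other probeset that names a Hox gene with another gene was highest on both of those arrays. The one shared by Hoxa3 and 5730446D14Rik read 4.32 and 4.82 there and 4.29 to 4.71 elsewhere. With their own probesets, Hoxb2 shifted by 0.014 and Hoxb3 by 0.17. The part of the hindbrain markers and of Xist in the Hox readings was not tested.

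**Figure D5:**
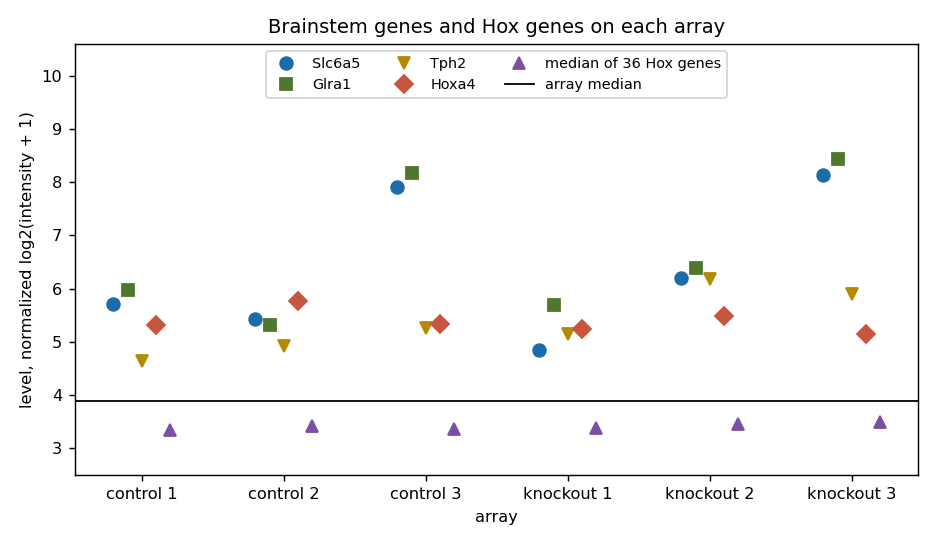
Levels of the brainstem markers Slc6a5, Glra1 and Tph2, of Hoxa4 and of the median of the 36 Hox genes on each array (normalized log2(intensity + 1)). Slc6a5 and Glra1 are near 8 on the arrays numbered 3 and lower elsewhere, while the Hox median stays between 3.34 and 3.49.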

How the data were processed

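Total RNA of mouse whole brain, 150 ng per sample, was labelled and hybridised to Mouse Gene 2.0 ST arrays, 3 per group. The authors' deposited values are intensity on a linear scale, 1 per probeset and array. Per the submitters' processing notes MAS5 was used, with no version named; scaling, background correction and filters: not given in the sources used here. Of 41340 probesets, 25335 were in the annotation, 23521 with 1 symbol, 1814 with several, and 16005 are unnamed here. Unused per-sample columns numbered 0.

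Values were taken as log2(intensity + 1). Array medians differed by 0.119, more than 0.1, and quantile normalization was applied. Each gene was represented by its brightest probeset, with no filter on low values. A difference on this scale understates the change of dim genes. Knockout was compared with control by two-sided limma 3.58.1 tests (R 4.3.3) over all 22180 genes, with Benjamini-Hochberg adjustment at 0.05, and the script was tested on simulated data. Levels by cluster and paralogue, lists and flanking genes are described without a test, in Python 3.11.15, and plots were drawn with matplotlib 3.10.9. The precision is limited by the number of arrays. The members, lists and tests were chosen with earlier results of these data known.

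Genes were named by a rule: values in all 6 arrays for the 10 members with the highest mean and the dimmest of each cluster, the 3 members with the smallest unadjusted p in each direction, each member whose groups did not overlap, and of each further list the first gene and the 2 with the smallest p. Of those lists only the genes that a result turned on are given. Other list members, Hoxa2, Hoxa5, Hoxb2, Hoxc9, Hoxc10, Hoxc13 and Hoxd11 were named after their values were seen. All 36 member symbols matched RefSeq.

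Deviations from group means correlated at 0.26, 0.31 and 0.70 for arrays numbered 1, 2 and 3, all above 0.1, which met the rule for treating equal numbers as pairs. This comes from the data, not from a label, and holds for number 3 alone, since control 1 with knockout 2 gave 0.33 and control 2 with knockout 1 gave 0.31. Alternatives covered normalization, pseudocount, filter, probeset rule, variance model, block, Xist as a covariate and arrays left out.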

Additional observations from a re-analysis of the deposited data

How the results depend on the processing

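Under every alternative run, 0 Hox genes and 0 of all genes passed the adjusted threshold in limma. The Hox genes with an unadjusted p under 0.05, 2 as reported, numbered 1 with a pseudocount of 16, 1 with genes under the 25th percentile left out (22 of 36 Hox genes kept), 4 with limma-trend, 4 with the replicate block and 6 with Xist as a covariate. They numbered 0 to 4 when single arrays were left out (lowest without control 1, highest without control 2, and 1 once knockout 2 was dropped) and 2 without both arrays numbered 3. Over all genes, the 465 became 282 with the filter, 1074 with the replicate block, 1022 with Xist as a covariate, 1061 without both arrays numbered 3 and 322 to 841 with single arrays left out, the highest without control 3. Fewer genes were tested with the filter, and the cause of the other changes was not tested.

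The median log2 difference of the Hox genes, 0.0227, was 0.0144 to 0.0857 with single arrays left out, the highest without control 2. It was -0.0129 for the values as deposited and -0.0122 without both arrays numbered 3. The named genes Hoxb6, Hoxd13, Hoxa10, Hoxb1, Hoxc6 and Hoxb5 kept their sign under each alternative that tested them, but not their size. The dimmer Hoxb5 probeset on its own was not among the alternatives, and its knockout mean was above its control mean. With a pseudocount of 16 Hoxb6 went from 0.289 to 0.118, Hoxd13 from 0.247 to 0.0927, Hoxa10 from 0.256 to 0.0879, Hoxb1 from -0.273 to -0.159, Hoxc6 from -0.252 to -0.0893 and Hoxb5 from -0.202 to -0.117. Hoxb1 was at -0.169 without control 1, and Hoxb5 ran from -0.0989 without knockout 2 to -0.337 without knockout 1, with an unadjusted limma p of 0.0438 there. Hox genes above the reference of other organs on every array numbered 1, against 0 with the highest such gene as the limit and 4 with the array median as the limit, and 1 under the other settings. Genes above the array median on every array numbered 5 in place of 4 without both arrays numbered 3, a setting chosen after seeing the data. A reading at the level of genes of other organs has little room to fall, and 3 arrays per group leave an interval of about 0.30 on either side of a typical difference.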
